A study of Mus musculus with 24 samples.

Results

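The thioredoxin and peroxiredoxin system is described here through 10 genes, Txn1, Txnrd1, Txnip, Srxn1, Prdx1, Prdx2, Prdx3, Prdx6, Glrx and Msra. They were listed by name, by a rule that uses no measured value, although earlier results of these data were known when the list was drawn up, and all 10 were found among the 24415 genes of the count table. Transcripts were counted by RNA sequencing in mouse lens cortical fiber cells and lens epithelia of the C57BL/6 background, in 6 groups of 4 libraries. LEGSKO+BSO libraries came from LEGSKO lenses treated with buthionine sulfoximine (BSO), an inhibitor of glutamate-cysteine ligase, and the series calls them severely deficient in glutathione. LEGSKO libraries came from untreated LEGSKO lenses, which the series calls mildly deficient, and wild-type (WT) libraries came from untreated WT lenses. LEGSKO is known as a mouse that lacks Gclc, the catalytic part of that ligase, in the lens; the LEGSKO+BSO groups carry this genotype too, so BSO was not tested on a WT background. The labels give no age, sex, Cre line or BSO dose, and do not say whether libraries are separate animals, so the p-values measure only the spread between these libraries, which may be technical.

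The lens is exposed to light and oxygen for life, and its fiber cells keep their crystallins with almost no turnover, so protein thiols must be held reduced. Glutathione does part of this work. The thioredoxin system does another part: thioredoxin reductase passes electrons from NADPH to thioredoxin, and thioredoxin reduces peroxiredoxins, methionine sulfoxide reductases and other protein disulfides. Peroxiredoxins remove hydrogen peroxide with a reactive cysteine, sulfiredoxin rescues peroxiredoxins whose cysteine was oxidised too far, and Txnip binds thioredoxin and restrains it.

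Among fibers, total counts (M, 1e+06 counts) were 39.0 to 46.6 M in the LEGSKO+BSO libraries, which were the most deeply sequenced, 22.4 to 25.5 M in the LEGSKO libraries and 25.7 to 30.0 M in the WT libraries. Among epithelia, the LEGSKO+BSO libraries held 19.3 to 33.9 M, the LEGSKO libraries 20.2 to 25.1 M and the WT libraries 20.6 to 24.2 M. Levels are counts per 1e+06 counts (CPM) after TMM scaling over the 24 libraries. WT fibers library 1 stood apart: crystallin transcripts took 50.1% of its counts, and 27.6% to 29.6% of those in WT fiber libraries 2 to 4. Members whose call between conditions changed when it was left out are therefore also given without it. The fiber markers Mip (aquaporin 0), Lim2 and Bfsp1 and the epithelial markers Foxe3, Pax6 and Cdh1 followed the tissue labels: Mip averaged 24179.6 CPM in WT fibers and 1484 CPM in WT epithelia, and Foxe3 averaged 4.79 CPM in WT fibers and 165 CPM in WT epithelia. In each condition, 23 of 25 listed fiber markers were called higher in fibers and 1 lower. Of 10 listed epithelial markers, 9 were called lower in fibers and 1 higher. These 10 summed to 3649 to 4093 CPM in WT fibers and 6129 to 6578 CPM in WT epithelia. Gclc averaged 110.2 CPM in LEGSKO+BSO fibers, 112 in LEGSKO fibers and 130.1 in WT fibers, and 57.7 CPM in LEGSKO+BSO epithelia, 39.8 in LEGSKO epithelia and 53.1 in WT epithelia. It was called in no comparison of conditions, and a count over the whole gene includes exons outside a deleted stretch, so it does not check the knockout.

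Promoter windows are shown for 3 members. The first pair were the members called higher in LEGSKO+BSO fibers. The third had the largest fold difference between fibers and epithelia among the peroxiredoxins in the fit of all 24 libraries. Each window holds 250 bases before and 50 after the start of the gene, 5′ to 3′ on the gene strand, from RefSeq for GRCm38.p6. Capitals mark the carbohydrate response element (ChoRE, a pair of E-box-like stretches set 5 bases apart), the AP-1 pattern TGANTCA and the core of the antioxidant response element TGACNNNGC, which the factor NRF2 binds, each searched on both strands.
Txnip (chr3:96557707-96558006, plus strand): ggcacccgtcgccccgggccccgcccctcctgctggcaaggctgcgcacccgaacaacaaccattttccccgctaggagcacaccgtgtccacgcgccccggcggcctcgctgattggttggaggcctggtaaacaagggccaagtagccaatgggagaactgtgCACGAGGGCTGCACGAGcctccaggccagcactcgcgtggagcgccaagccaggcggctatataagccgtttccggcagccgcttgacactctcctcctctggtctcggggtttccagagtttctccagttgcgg
Srxn1 (chr2:152105274-152105573, plus strand): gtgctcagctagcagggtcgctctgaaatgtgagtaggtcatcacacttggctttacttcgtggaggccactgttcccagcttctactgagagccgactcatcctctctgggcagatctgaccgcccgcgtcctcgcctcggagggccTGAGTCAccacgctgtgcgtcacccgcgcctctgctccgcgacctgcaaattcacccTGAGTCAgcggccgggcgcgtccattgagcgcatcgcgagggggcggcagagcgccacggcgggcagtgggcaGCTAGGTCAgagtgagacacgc
Prdx1 (chr4:116685349-116685648, plus strand): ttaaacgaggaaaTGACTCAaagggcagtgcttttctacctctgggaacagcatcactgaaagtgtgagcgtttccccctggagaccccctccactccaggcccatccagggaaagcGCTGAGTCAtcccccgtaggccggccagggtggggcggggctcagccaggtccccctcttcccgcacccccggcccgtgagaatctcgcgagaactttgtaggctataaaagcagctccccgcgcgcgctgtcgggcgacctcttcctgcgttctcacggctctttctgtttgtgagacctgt

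The Txnip window held 1 match to the carbohydrate response element, starting 85 bases before the gene start, a pattern found in 0.365% of 32851 mouse promoter windows of the same length. The Srxn1 window held AP-1 matches 102 and 45 bases before the start and an antioxidant response core, on the minus strand, 28 bases after it. The Prdx1 window held an AP-1 match 237 bases before the start, and an antioxidant response core on the minus strand 133 bases before it that overlaps a second AP-1 match at 131 bases. Of all windows, 12.4% held the antioxidant response core and 7.81% held the AP-1 pattern. The table holds 11 windows for 8 members, some with several starts. Of these windows, 3 held the antioxidant response core (1 each of Txnrd1, Srxn1 and Prdx1), 4 the AP-1 pattern (1 each of Srxn1 and Prdx1 and 2 of Glrx that overlap almost fully) and 1 the carbohydrate pattern (Txnip). These matches describe letters in the windows and were not tested for binding.

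**Figure D1:**
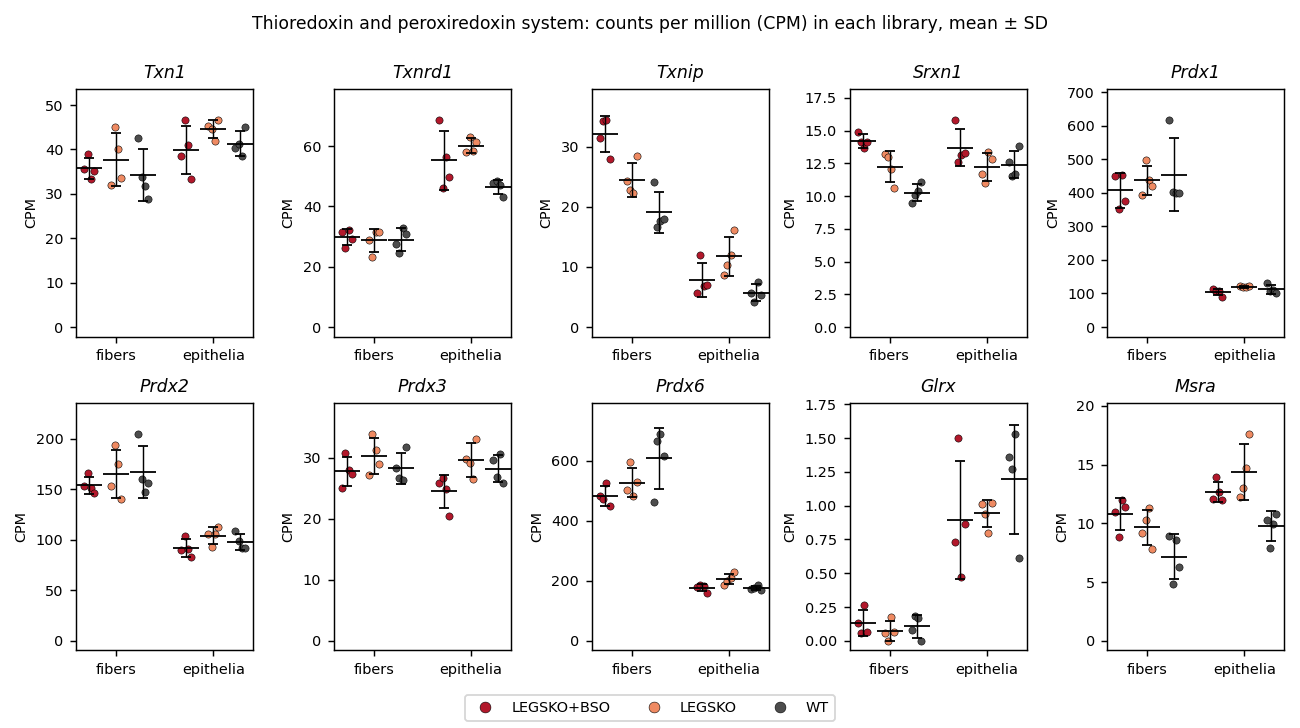
Level of each member in each library, in CPM on a linear axis, with the mean and SD of the 4 libraries of a group; fibers are left of epithelia, and LEGSKO+BSO, LEGSKO and WT run left to right in each tissue. Txnip in LEGSKO+BSO fibers (28.0 to 34.4 CPM) and Srxn1 in LEGSKO+BSO fibers (13.7 to 14.9 CPM) lay above all WT fiber libraries, and Prdx1, Prdx2 and Prdx6 lay higher in all fiber libraries than in any epithelial library.

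Severe glutathione deficiency was first examined in fibers. In LEGSKO+BSO fibers, Txnip and Srxn1 rose against WT fibers, by 1.70-fold and 1.38-fold, and the transcripts of thioredoxin, its reductase and the 4 peroxiredoxins did not pass the test. So 2 of the 9 members tested were called, both higher, where 5.52% of all 13436 genes tested were called and 3.05% were called higher. The tenth member, Glrx, did not pass the filter on low counts in fibers. The median log2 change was 0.04 over the 9 members and -0.01 over all genes tested. Each test is the quasi-likelihood F test of edgeR, with p-values adjusted by Benjamini and Hochberg's method over all genes tested, and a gene is called below an adjusted p of 0.05.

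Txnip (Entrez 56338, GRCm38 chromosome 3: 96557957 to 96561857) encodes the arrestin-like protein that binds reduced thioredoxin and also lowers glucose uptake. Its level was 31.5, 34.3, 34.4 and 28.0 CPM in LEGSKO+BSO fiber libraries 1 to 4, 24.2, 22.7, 22.3 and 28.4 CPM in LEGSKO fiber libraries 1 to 4, and 24.1, 16.7, 17.6 and 17.9 CPM in WT fiber libraries 1 to 4. Every LEGSKO+BSO library was above every WT library, as held for 7.62% of all genes tested, while LEGSKO overlapped both other groups, and WT library 1 was the highest of the WT libraries. The log2 fold change of LEGSKO+BSO against WT fibers was 0.76 ± 0.11 (SE; 95% interval 0.52 to 1.01, adjusted p = 0.00225, n = 4 each, edgeR), and it was called in all 8 fits that left out 1 library, with log2 changes of 0.71 to 0.88. Against WT fibers, LEGSKO fibers had a log2 change of 0.37 (95% interval 0.11 to 0.62, adjusted p = 0.147, edgeR), which became 0.48 with an adjusted p of 0.0102 without WT fibers library 1. LEGSKO+BSO against LEGSKO fibers gave a log2 change of 0.40 (95% interval 0.16 to 0.64, adjusted p = 0.285, edgeR).

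Srxn1 (Entrez 76650, chromosome 2: 152105524 to 152111376) encodes sulfiredoxin, which uses ATP to restore peroxiredoxins oxidised to the sulfinic acid. It was measured at 14.9, 14.1, 13.7 and 14.1 CPM in LEGSKO+BSO fibers, 13.2, 13.0, 12.1 and 10.6 CPM in LEGSKO fibers, and 9.49, 10.1, 10.4 and 11.1 CPM in WT fibers. The LEGSKO+BSO libraries were above all libraries of both other groups, and the spread among them was small, with an SD of 0.497 CPM. The log2 change against WT fibers was 0.46 ± 0.09 (SE; 95% interval 0.27 to 0.66, adjusted p = 0.0106, n = 4 each, edgeR), and it was called in all 8 fits that left out 1 library. Scaled by library totals instead of TMM, its log2 change was 0.60 with an adjusted p of 0.114. Against LEGSKO fibers the log2 change was 0.22 (95% interval 0.02 to 0.41, adjusted p = 0.415, edgeR), although the groups did not overlap, as held for 4.76% of genes in the higher direction.

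Ratios within a library need no scaling between libraries. The ratio of Txnip to Txn1 counts was 1.61-fold higher in LEGSKO+BSO fibers than in WT fibers, with all 4 LEGSKO+BSO libraries above all 4 WT libraries (exact two-sided permutation test, p = 0.0286, the smallest p that 4 against 4 can give; 0.0454 adjusted over 27 ratio tests). The ratio of Srxn1 to the summed counts of Prdx1, Prdx2 and Prdx3 was 1.51-fold higher, again without overlap (exact permutation p = 0.0286, adjusted 0.0454). Its log2 difference was 0.59, and it lay between 0.42 and 0.67 when single libraries were left out. Both ratios were chosen after Txnip and Srxn1 had been seen to rise, so their p-values are no separate support. The adjusted values rest on pooling these tests with the comparisons of tissues given below, which all gave the smallest p.

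Gm15441, a long noncoding gene that overlaps Txnip, moved with it. It averaged 8.62 ± 1.10 CPM in LEGSKO+BSO fibers, 6.82 ± 0.643 CPM in LEGSKO fibers and 6.04 ± 0.487 CPM in WT fibers (SD, n = 4 each), and its log2 change in LEGSKO+BSO against WT fibers was 0.52 (adjusted p = 0.0293, edgeR). In the 24 libraries its level was 18.1% to 36.0% of that of Txnip. The strand setting of the counting is not given in the sources used here, so reads of this pair of genes cannot be told apart.

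**Figure D2:**
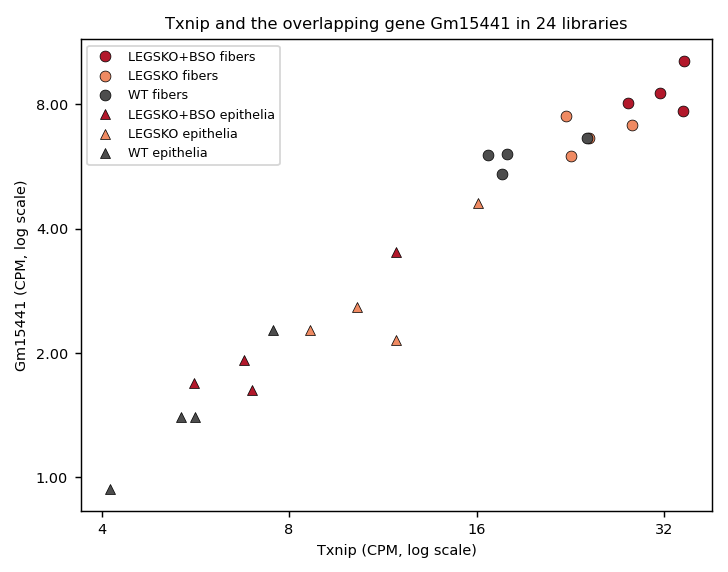
CPM of Gm15441 against CPM of Txnip, both on log scales, in each of the 24 libraries; colours mark the condition, circles are fibers and triangles are epithelia. The libraries lie along 1 band, with LEGSKO+BSO fibers at the upper end (28.0 to 34.4 CPM of Txnip) and WT epithelia at the lower end (4.12 to 7.55 CPM).

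Msra (Entrez 110265, chromosome 14: 64122621 to 64455903), the methionine-S-sulfoxide reductase that thioredoxin recharges, was measured at 11, 8.82, 12 and 11.4 CPM in LEGSKO+BSO fibers, 9.21, 10.3, 11.3 and 7.83 CPM in LEGSKO fibers, and 8.92, 4.86, 8.54 and 6.31 CPM in WT fibers. LEGSKO+BSO and WT overlapped in 1 library each. The log2 change of LEGSKO+BSO against WT fibers was 0.61 (95% interval 0.24 to 0.99) and was not called, with an adjusted p of 0.0567 (edgeR). It passed the threshold in 5 of the alternatives and without WT fibers library 1 (log2 0.72, adjusted p = 0.0155) or LEGSKO+BSO fibers library 2 (log2 0.70, adjusted p = 0.0457).

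The peroxiredoxin Prdx6 has a single reactive cysteine and is recycled with glutathione rather than with thioredoxin. Its level was 483, 472, 527 and 448 CPM in LEGSKO+BSO fibers, 501, 596, 483 and 528 CPM in LEGSKO fibers, and 462, 664, 689 and 615 CPM in WT fibers. Apart from WT library 1, the WT libraries were above all LEGSKO+BSO libraries. The log2 change of LEGSKO+BSO against WT fibers was -0.33 (95% interval -0.56 to -0.10, adjusted p = 0.0929, edgeR) and was not called. With all libraries kept, it was called by DESeq2 (adjusted p = 0.0412) and in the fit of 24 libraries (adjusted p = 0.0464, edgeR). Of the 8 fits that left out 1 library it was called in 1, at -0.44 without WT fibers library 1 (adjusted p = 0.00233, edgeR). For LEGSKO against WT fibers the log2 change was -0.21 (adjusted p = 0.401, edgeR), and -0.32 without that library (adjusted p = 0.0240).

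Prdx1 and Prdx2, the cytosolic peroxiredoxins that thioredoxin recycles, and Prdx3, their mitochondrial relative, were not called in fibers. Prdx1 stood at 449, 352, 453 and 376 CPM in LEGSKO+BSO fibers, 394, 497, 439.7 and 420.4 CPM in LEGSKO fibers, and 617, 402, 399 and 401 CPM in WT fibers. The groups overlapped, and 1 WT library was far above the other WT libraries. Log2 changes of LEGSKO+BSO against WT fibers were -0.16 for Prdx1 (95% interval -0.45 to 0.13), -0.12 for Prdx2 (-0.35 to 0.11) and -0.03 for Prdx3 (-0.21 to 0.16). Without WT fibers library 1 the Prdx1 value was 0.03. Txn1, thioredoxin itself, had a log2 change of 0.07 (-0.18 to 0.32) and Txnrd1, the cytosolic selenoprotein that reduces it, of 0.04 (-0.19 to 0.28). For these 5 genes the intervals exclude a change of the size fitted for Txnip.

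LEGSKO fibers against WT fibers, the mild deficiency, called 0 of the 9 members tested with edgeR, where 1.64% of all genes were called. Unadjusted p-values were below 0.05 for 3 members, Txnip, Srxn1 and Msra, as for 15.0% of all genes, and DESeq2 called 0 members. Without WT fibers library 1, edgeR called Txnip and Prdx6, as given above. LEGSKO+BSO against LEGSKO fibers likewise called 0 of 9 members, where 0.0298% of genes were called, with 2 members, Txnip and Srxn1, below an unadjusted p of 0.05, as for 10.5% of all genes, and none called by DESeq2. The 3 comparisons share their libraries pairwise, so their values are not independent.

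Markers of other cells were measured beside these results. The summed level of the 10 immune cell markers was 4.96 to 6.86 CPM in LEGSKO+BSO fibers, 1.05 to 1.53 CPM in LEGSKO fibers and 1.11 to 1.81 CPM in WT fibers. Most of it was Lyz2, a lysozyme (log2 change 2.75 against WT fibers, adjusted p = 6.94e-05, edgeR); the other 9 markers summed to 1.04 to 1.35 CPM in LEGSKO+BSO fibers and 0.409 to 1.20 CPM in WT fibers, and 2 of the 10 were at 0 in all LEGSKO+BSO fiber libraries. Of the 8 muscle and stroma markers only Acta2 reached the test in fibers, and it was higher than in WT fibers in LEGSKO+BSO fibers (log2 0.38, adjusted p = 0.0192, edgeR) and LEGSKO fibers (log2 0.39, adjusted p = 0.0345, edgeR). Of these 8 markers, 5 were at 0 in all LEGSKO+BSO fiber libraries, 5 in all LEGSKO fiber libraries and 3 in all WT fiber libraries. Only 1 of the 8 averaged at least 1 CPM in each of these groups. The part of immune, muscle and stroma markers in the Txnip and Srxn1 values was not tested. In bulk tissue, fewer cells of a type and less RNA per cell cannot be told apart.

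**Figure D3:**
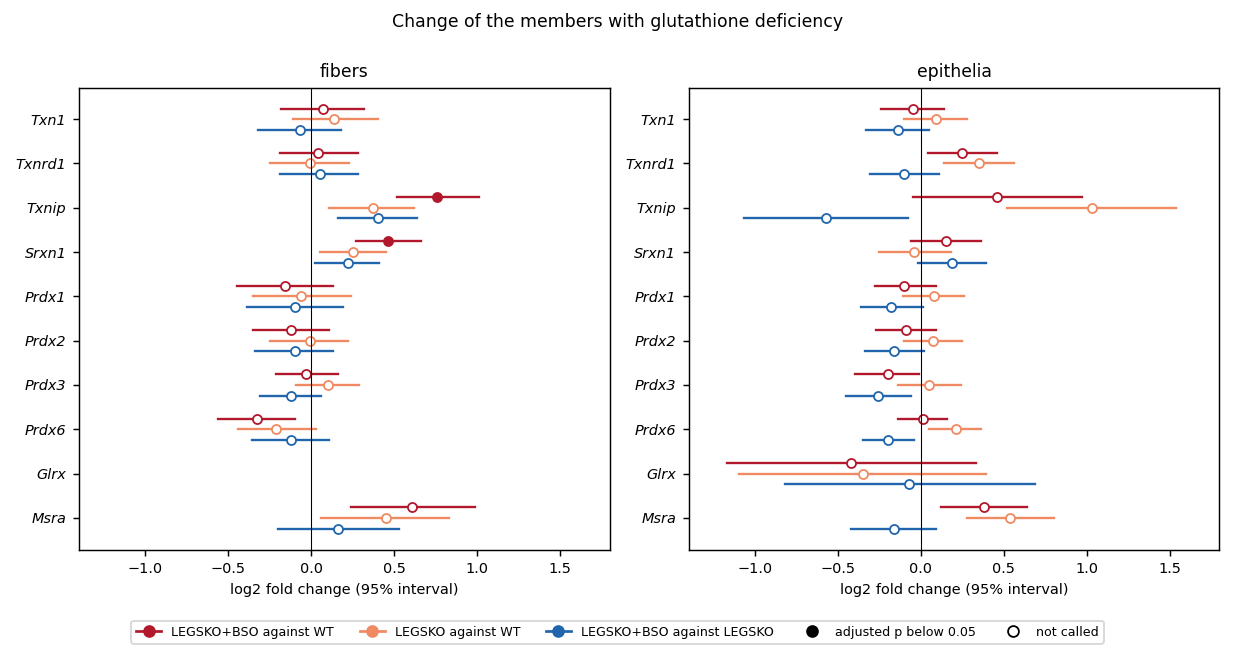
Fitted log2 fold changes of the members for LEGSKO+BSO against WT, LEGSKO against WT and LEGSKO+BSO against LEGSKO, with 95% intervals, in fibers (left) and epithelia (right); filled points have an adjusted p below 0.05. Only Txnip (0.76) and Srxn1 (0.46) in LEGSKO+BSO against WT fibers are filled, and in epithelia the largest fitted change, Txnip in LEGSKO against WT (1.03), is open; Glrx did not pass the filter on low counts in fibers.

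In epithelia no member was called in any of the 3 comparisons of conditions. For LEGSKO against WT epithelia this was 0 of 10 members, where 0.842% of the 15089 genes tested were called. The 4 members Txnip, Msra, Txnrd1 and Prdx6 were nevertheless higher in all 4 LEGSKO libraries than in all 4 WT libraries, as held for 5.59% of all genes, and the same 4 had unadjusted p-values below 0.05, as did 14.1% of all genes. The median log2 change was 0.09 over the 10 members and -0.01 over all genes.

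Txnip in epithelia was 5.64, 11.9, 6.78 and 6.97 CPM in LEGSKO+BSO, 8.65, 10.3, 11.9 and 16.1 CPM in LEGSKO, and 5.65, 4.12, 7.55 and 5.37 CPM in WT. LEGSKO was above WT without overlap, and LEGSKO+BSO overlapped both. The log2 change of LEGSKO against WT epithelia was 1.03 ± 0.24 (SE; 95% interval 0.52 to 1.54) with an adjusted p of 0.0579 (edgeR), so it was not called; adjusted p-values over the alternatives ran from 0.00155 with DESeq2 to 0.184 without LEGSKO epithelia library 4. LEGSKO+BSO against WT epithelia gave a log2 change of 0.46 (adjusted p = 0.399, edgeR) and LEGSKO+BSO against LEGSKO epithelia one of -0.57 (adjusted p = 0.202, edgeR). Over the 8 fits that left out 1 library, this last change ran from -0.84 to -0.38. It was called in 1 of them, without LEGSKO+BSO epithelia library 2 (-0.84, adjusted p = 0.0479, edgeR), where 442 genes were called against 109 with all libraries. Without LEGSKO epithelia library 4 its adjusted p was 0.457 (edgeR).

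Msra in epithelia was 12.1, 13.9, 12.7 and 12 CPM in LEGSKO+BSO, 12.2, 13.0, 14.7 and 17.6 CPM in LEGSKO, and 10.3, 7.93, 9.95 and 10.8 CPM in WT. Both deficient groups were above WT in every library, as held in LEGSKO+BSO for 3.86% of all genes. Log2 changes against WT were 0.38 in LEGSKO+BSO epithelia (95% interval 0.12 to 0.64, adjusted p = 0.146, edgeR) and 0.54 in LEGSKO epithelia (0.28 to 0.80, adjusted p = 0.0533, edgeR). DESeq2 called the LEGSKO change with an adjusted p of 0.00421, in a comparison where it called 440 genes and edgeR 127. With edgeR it was called in 1 of the 8 fits that left out 1 library, with an adjusted p of 0.155 without LEGSKO epithelia library 4.

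Txnrd1 (Entrez 50493, chromosome 10: 82833951 to 82897724) was measured at 68.6, 46.1, 56.5 and 49.7 CPM in LEGSKO+BSO epithelia, 58.1, 63.0, 58.2 and 61.4 CPM in LEGSKO epithelia, and 47.6, 48.4, 47.1 and 43.2 CPM in WT epithelia. All LEGSKO libraries were above all WT libraries, by a log2 change of 0.35 (95% interval 0.14 to 0.56, adjusted p = 0.111, edgeR), and LEGSKO+BSO overlapped WT with a log2 change of 0.25. DESeq2 called the LEGSKO change (adjusted p = 0.0322), and edgeR called it in 0 of the 8 fits that left out 1 library. Prdx6 stood at 178, 186, 183 and 160.4 CPM in LEGSKO+BSO epithelia, 187, 199, 209 and 229 CPM in LEGSKO epithelia, and 172, 177, 186 and 169.9 CPM in WT epithelia. Its log2 changes were 0.21 for LEGSKO against WT (adjusted p = 0.197, edgeR) and -0.20 for LEGSKO+BSO against LEGSKO (adjusted p = 0.165, edgeR).

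Srxn1 had log2 changes of 0.15 in LEGSKO+BSO against WT epithelia (95% interval -0.06 to 0.36) and -0.04 in LEGSKO against WT epithelia (-0.25 to 0.18). Txn1, Prdx1 and Prdx2 had absolute log2 changes of at most 0.10 against WT in both deficient groups. Prdx3 was at -0.20 in LEGSKO+BSO epithelia (95% interval -0.40 to -0.01, adjusted p = 0.313, edgeR). Glrx, the cytosolic glutaredoxin that uses glutathione to free proteins of bound glutathione, had wide intervals, from -1.17 to 0.33 in LEGSKO+BSO and from -1.10 to 0.39 in LEGSKO against WT epithelia, because it rested on 14 to 53 counts a library.

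LEGSKO+BSO against WT epithelia called 0 of 10 members, where 1.17% of genes were called, with 3 members below an unadjusted p of 0.05, as for 14.8% of genes. LEGSKO+BSO against LEGSKO epithelia called 0 of 10, where 0.722% were called, with 3 below, as for 19.3% of genes. DESeq2 called none in either. In the second, Prdx1 and Prdx6 were lower in all LEGSKO+BSO libraries than in all LEGSKO libraries, as held for 8.45% of genes, and 9 of 10 members had log2 changes below 0, with a median of -0.16 against 0.00 over all genes. Several members rise and fall together, so these 9 are not independent. LEGSKO+BSO epithelia library 4 was the lowest of its group for Txn1, Prdx1, Prdx2, Prdx3 and Prdx6. The 7 corneal and conjunctival markers summed to 119.7 to 137 CPM in LEGSKO+BSO epithelia and 144 to 151 CPM in LEGSKO epithelia. In WT epithelia they summed to 69.3 to 100.1 CPM. Only 3 of the 7 passed the filter, and Krt15 and Krt19 were called higher than in WT in both deficient groups. The 10 retinal markers summed to 21.7 to 94.6 CPM in LEGSKO+BSO, 26.3 to 236 in LEGSKO and 59.2 to 298 in WT epithelia. Of these 10, 0 were called between conditions in epithelia. The part of either marker set in the epithelial values was not tested.

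Whether the change against WT differed between fibers and epithelia was tested over the 24 libraries. No member was called for LEGSKO+BSO (0 of 10; 0.276% of 15560 genes called) or for LEGSKO (0 of 10; 0.103% called), and DESeq2 called none in either. Unadjusted p-values were below 0.05 for 2 members in LEGSKO+BSO, as for 13.6% of genes, and for 3 in LEGSKO, as for 9.06% of genes. The difference for Srxn1 in LEGSKO+BSO, fibers minus epithelia, was a log2 value of 0.31 (95% interval 0.05 to 0.58, adjusted p = 0.277, edgeR), and for Txnip 0.31 (-0.27 to 0.90, adjusted p = 0.681, edgeR). For Prdx6 in LEGSKO it was -0.43 (-0.72 to -0.14, adjusted p = 0.304, edgeR), and -0.52 with an adjusted p of 0.0489 without WT fibers library 1. A response limited to fibers was therefore not shown for Txnip or Srxn1.

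Levels were next compared between the tissues, a comparison the series' own design does not make. Fibers had more Prdx1, Prdx6, Prdx2 and Txnip transcript than epithelia in all 3 conditions, less Txnrd1 and far less Glrx. Called members numbered 6 of 10 in LEGSKO+BSO, 7 in LEGSKO and 9 in WT, where 78.9%, 75.8% and 76.4% of all genes were called in those conditions, so a call by itself sets no member apart. In the same order of conditions, 4 members each were called higher (38.1%, 36.8% and 37.0% of genes) and 2, 3 and 5 lower (40.8%, 39.0% and 39.4% of genes), and 37.4%, 34.9% and 33.3% of genes were higher in all fiber libraries than in all epithelial ones. The scaling matters here: with library totals in place of TMM the log2 values of all genes shifted by -1.06 in LEGSKO+BSO, -1.10 in LEGSKO and -1.16 in WT, and with them Prdx2 turned to lower in fibers in all 3 conditions, and Txnip to -0.05 in LEGSKO.

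Prdx1 (Entrez 18477, chromosome 4: 116685599 to 116700000) averaged 408 ± 51.5 CPM in LEGSKO+BSO fibers and 105 ± 9.66 CPM in LEGSKO+BSO epithelia, 438 ± 43.5 CPM in LEGSKO fibers and 119.9 ± 2.71 CPM in LEGSKO epithelia, and 454 ± 108 CPM in WT fibers and 112 ± 13.4 CPM in WT epithelia (SD, n = 4 each). No fiber library overlapped an epithelial one. The log2 differences were 1.96, 1.87 and 2.02 in LEGSKO+BSO, LEGSKO and WT with TMM, and 0.90, 0.76 and 0.80 with library totals. For Prdx6 (Entrez 11758, chromosome 1: 161240112 to 161251210) they were 1.45, 1.36 and 1.79 with TMM and 0.39, 0.25 and 0.66 with library totals, the LEGSKO value no longer called (adjusted p = 0.150, edgeR). When single libraries were left out, the WT values with TMM ran from 1.81 to 2.10 for Prdx1 and 1.72 to 1.87 for Prdx6. These ranges overlap. Prdx3 showed no difference past the test in LEGSKO+BSO (0.18), LEGSKO (0.03) or WT (0.00) with TMM, and was lower in fibers in each with library totals (-0.88, -1.07 and -1.16).

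Ratios within a library give these differences free of scaling. Prdx1 counts relative to Prdx3 counts were 3.42-fold higher in LEGSKO+BSO fibers than in LEGSKO+BSO epithelia, 3.55-fold in LEGSKO and 3.99-fold in WT. For Prdx6 relative to Prdx3 the folds were 2.40, 2.50 and 3.41, and for Prdx2 relative to Prdx3 they were 1.48, 1.54 and 1.69, in LEGSKO+BSO, LEGSKO and WT. Prdx1 relative to Txnrd1 was 7.15-fold, 7.65-fold and 6.47-fold higher in fibers, in the same order. Txnip relative to Txn1 was 4.72-fold, 2.53-fold and 4.14-fold higher. In each of these 15 comparisons all 4 fiber libraries were above all 4 epithelial libraries (exact two-sided permutation test, p = 0.0286 each, the smallest possible, 0.0454 adjusted over 27 ratio tests). A ratio shows unequal differences between the genes and not that either gene was constant. These ratios too were chosen after the levels had been seen, so their p-values are no separate support.

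Txnrd1 averaged 29.8 ± 2.67 CPM in LEGSKO+BSO fibers and 55.2 ± 9.91 CPM in LEGSKO+BSO epithelia, 28.8 ± 3.83 CPM in LEGSKO fibers and 60.2 ± 2.45 CPM in LEGSKO epithelia, and 28.9 ± 3.73 CPM in WT fibers and 46.6 ± 2.28 CPM in WT epithelia (SD, n = 4 each). Its log2 differences were -0.89, -1.06 and -0.69 in LEGSKO+BSO, LEGSKO and WT, and lower still with library totals. Glrx had 2 to 8 counts in LEGSKO+BSO fibers and 14 to 45 in LEGSKO+BSO epithelia, 0 to 3 in LEGSKO fibers and 25 to 37 in LEGSKO epithelia, and 0 to 4 in WT fibers and 21 to 53 in WT epithelia. Fitted log2 differences of -2.72, -3.57 and -3.38 in those conditions rest on these few counts, with a 95% interval of -4.59 to -2.17 in WT.

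Txn1, Srxn1 and Msra had smaller log2 differences between the tissues under TMM than Txnrd1 and Glrx in each condition. Log2 differences in LEGSKO+BSO, LEGSKO and WT were -0.16, -0.24 and -0.28 for Txn1, 0.05, 0.00 and -0.26 for Srxn1, and -0.23, -0.57 and -0.47 for Msra. The WT values of all 3 genes and the LEGSKO value of Msra were called lower in fibers. In WT, the Txn1 call was lost without WT fibers library 2, 3 or 4 or WT epithelia library 4, the Srxn1 call without WT epithelia library 4 and the Msra call without WT fibers library 2, with adjusted p-values of at most 0.129 (edgeR). Over all 8 fits that left out 1 library, the WT value of Txn1 ran from -0.41 to -0.20, with adjusted p-values of 0.00145 to 0.129 (edgeR). With library totals all 3 genes were lower in fibers in every condition.

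**Figure D4:**
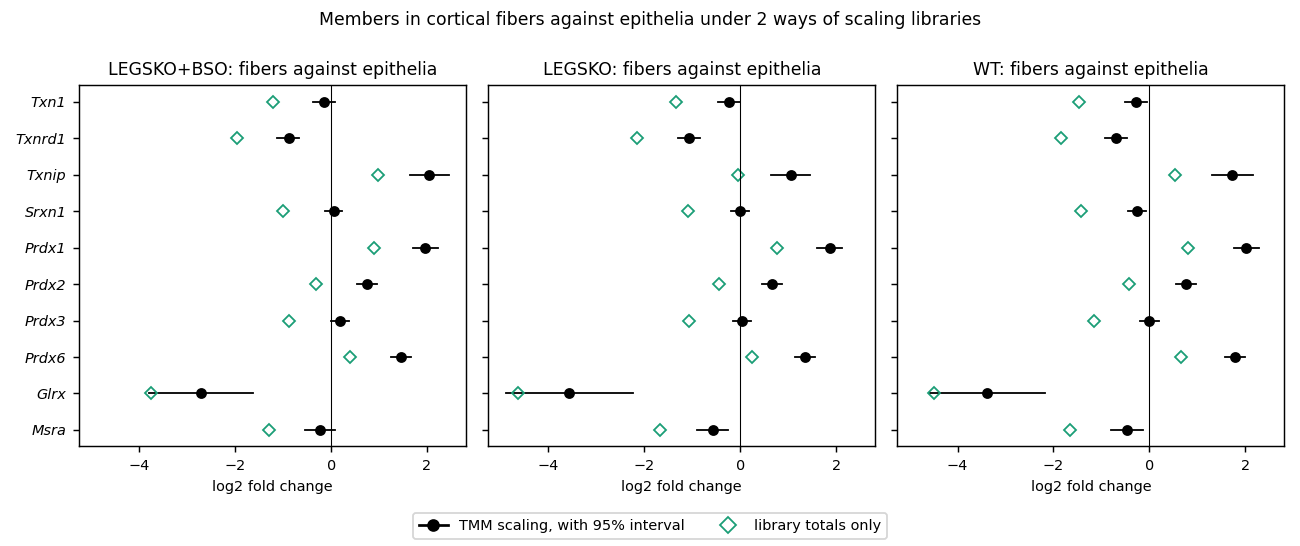
Log2 difference of each member between fibers and epithelia in LEGSKO+BSO, LEGSKO and WT (left to right), with TMM scaling (filled circles, 95% intervals) and with library totals only (open diamonds). Every diamond lies to the left of its circle, by about the shift of all genes (-1.06 to -1.16), and Prdx1 and Prdx6 stay right of 0 under both.

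Levels of different genes were compared per kb of annotated exon. Prdx6 was the most abundant member in all 6 groups, at 193 ± 13.2 CPM per kb in LEGSKO+BSO fibers and 70.8 ± 4.62 in LEGSKO+BSO epithelia, 211 ± 19.9 in LEGSKO fibers and 82.4 ± 7.16 in LEGSKO epithelia, and 243 ± 40.8 in WT fibers and 70.5 ± 2.84 in WT epithelia (SD, n = 4 each). Glrx was the least abundant in every group, at 0.0793 CPM per kb in WT fibers and 0.874 in WT epithelia. The order in fibers was Prdx6, Prdx1, Prdx2, Txn1 and Prdx3, and in epithelia Prdx2 came before Prdx1. Libraries of Prdx6 and Prdx1 overlapped in LEGSKO and WT fibers, and those of Prdx2 and Prdx1 overlapped in WT epithelia, so these neighbours are not separated beyond their spread.

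Further down, Txnip changed place between groups. In LEGSKO+BSO fibers Txnip (11.3 ± 1.06 CPM per kb) stood above Txnrd1 (7.30 ± 0.657) without overlap, in LEGSKO fibers at 8.64 ± 0.992 above 7.07 ± 0.941, and in WT fibers Txnip (6.75 ± 1.19) and Txnrd1 (7.10 ± 0.916) overlapped. In epithelia Txnip was below Txnrd1, Msra and Srxn1 on average in all 3 conditions, at 2.77 in LEGSKO+BSO, 4.15 in LEGSKO and 2.01 CPM per kb in WT.

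The makeup of the 4 peroxiredoxins was described by their shares of their summed CPM per kb. Prdx1 made up 35.1% ± 2.61 in LEGSKO+BSO fibers and 23.1% ± 1.04 in LEGSKO+BSO epithelia, 34.9% ± 0.785 in LEGSKO fibers and 22.9% ± 1.22 in LEGSKO epithelia, and 33.5% ± 6.71 in WT fibers and 23.6% ± 1.57 in WT epithelia (SD, n = 4 each). Prdx3 made up 4.14%, 4.16% and 3.61% in LEGSKO+BSO, LEGSKO and WT fibers and 9.29%, 9.73% and 10.2% in the matching epithelia. Prdx6 made up 42.4% ± 0.925 in LEGSKO+BSO fibers and 39.8% ± 0.756 in LEGSKO+BSO epithelia, 42.8% ± 2.06 in LEGSKO fibers and 40.0% ± 1.84 in LEGSKO epithelia, and 46.0% ± 8.68 in WT fibers and 37.9% ± 2.30 in WT epithelia (SD, n = 4 each). Without WT fibers library 1, the WT fiber shares were 50.3% ± 1.86 for Prdx6, 30.1% ± 0.708 for Prdx1 and 3.67% ± 0.481 for Prdx3 (SD, n = 3). The differences in share were not tested. Prdx2 is abundant in red blood cells. The 9 red cell markers in the table summed to at most 3.18 CPM in any fiber library and 15.2 CPM in any epithelial library. Prdx2 itself was at 83.3 to 205 CPM, and the part of red cells in its values was not tested.

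**Figure D5:**
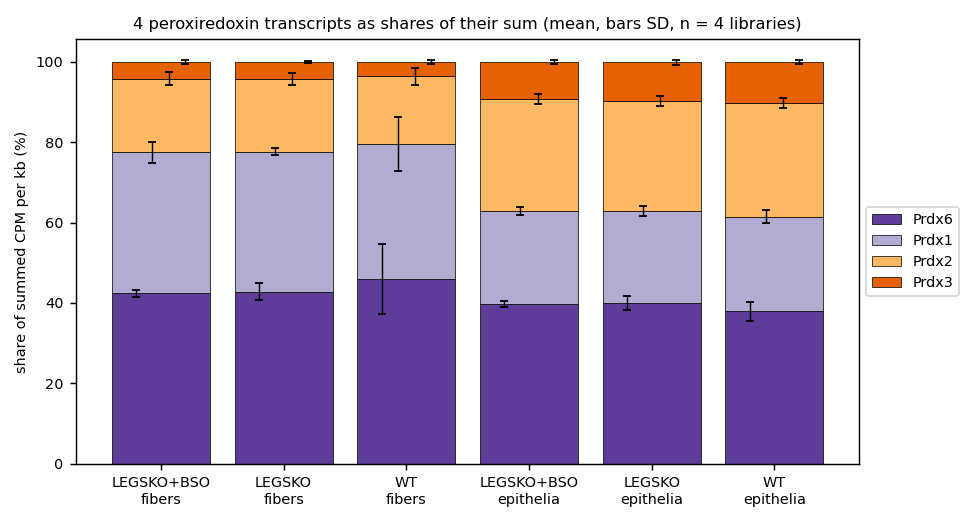
Mean share of Prdx6, Prdx1, Prdx2 and Prdx3 in their summed CPM per kb of exon, in percent, in the 6 groups; error bars are SDs of 4 libraries for the segment whose top they cross. Prdx1 takes 33.5% to 35.1% in fibers and 22.9% to 23.6% in epithelia, and Prdx3 takes 3.61% to 4.16% in fibers and 9.29% to 10.2% in epithelia.

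The members were set against 79 other genes of the pathway in 8 lists. In LEGSKO+BSO against WT fibers, 6 of 74 list genes tested were called, 4 higher and 2 lower, where 5.52% of all genes were called. Higher were Txn2, the mitochondrial thioredoxin (log2 0.31, adjusted p = 0.0407), Glrx5, a mitochondrial glutaredoxin of iron-sulfur cluster assembly (0.45, 0.0235), Gclm, the modifier of the glutathione-making ligase (0.38, 0.0148), and Tkt, transketolase of the pentose phosphate path (0.31, 0.0387). Lower were Tmx3 (-0.32, adjusted p = 0.0179) and Tmx4 (-0.30, 0.0191), thioredoxin-like membrane proteins of the endoplasmic reticulum (all edgeR). Of the 8 fits that left out 1 library, Gclm was called in 8, Tmx3 in 6, Glrx5 in 5, Tmx4 in 4, Txn2 in 2 and Tkt in 1, and none of the 6 was called with library totals. In the fit of 24 libraries Gclm (adjusted p = 0.127), Txn2 (0.0731) and Tkt (0.0854) were not called (edgeR). Tkt was also not called with a replicate block (adjusted p = 0.0709, edgeR).

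By list, 1 higher and 2 lower of 18 other thioredoxin-fold proteins and reductases, 1 higher of 6 other glutaredoxins and methionine sulfoxide reductases, 1 higher of 18 NRF2 pathway and target genes and 1 higher of 8 genes of NADPH supply made up these calls. No gene was called among 6 other peroxiredoxins and sestrins, 6 Txnip regulators and arrestin relatives, 6 thioredoxin clients and 6 genes of selenoprotein synthesis. No list gene was called in LEGSKO against WT fibers or in LEGSKO+BSO against LEGSKO fibers. The arrestin relative Arrdc4, which like Txnip responds to the carbohydrate factor in human and mouse cells, had a log2 change of -0.28 in LEGSKO+BSO against WT fibers (adjusted p = 0.322, edgeR).

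In epithelia, 78 list genes were tested. Osgin1, an NRF2 target gene, rose to 7.96 ± 0.957 CPM in LEGSKO+BSO and 6.46 ± 1.19 CPM in LEGSKO, against 3.62 ± 0.813 CPM in WT (SD, n = 4 each), with log2 changes of 1.14 (adjusted p = 0.00533, edgeR; called in all 8 fits without 1 library) and 0.82 (adjusted p = 0.0372, edgeR; called in 2 of 8). G6pdx, the first enzyme of the pentose phosphate path, was higher in LEGSKO+BSO than in WT epithelia (log2 0.47, adjusted p = 0.0391, edgeR; called in 1 of 8). Between LEGSKO+BSO and LEGSKO epithelia, Mafg, a partner of NRF2, was higher (log2 0.38, adjusted p = 0.0339; 1 of 8) and Arrdc3, an arrestin relative of Txnip, was lower (-0.54, adjusted p = 0.0347; 2 of 8; both edgeR). The change of Mafg against WT in LEGSKO+BSO also differed between the tissues (log2 -0.50, fibers minus epithelia, adjusted p = 0.0455, edgeR; 3 of 16).

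Between the tissues, 71 of 78 list genes were called in LEGSKO+BSO, where 78.9% of all genes were called, and 68 each in LEGSKO (75.8%) and WT (76.4%). In WT, 42 list genes were higher in fibers, where 37.0% of all genes were, and 26 were lower, where 39.4% were, with a median log2 difference of 0.27 for the list genes and -0.09 for all genes. With library totals the split in WT was 14 higher and 52 lower (12.7% and 73.7% of all genes), with medians of -0.89 for the list genes and -1.25 for all genes. The gene with the smallest adjusted p in each list was Arrdc4 (log2 4.68), Ftl1, a ferritin subunit (4.66), Glrx3, a cytosolic glutaredoxin of iron handling (2.36), Sesn3, a sestrin (2.32), Map3k5, the kinase ASK1 that thioredoxin holds inactive (1.73), Txndc15 (1.67), Trnau1ap (0.91) and Tkt (-2.68). With library totals all kept their direction except Trnau1ap, which turned to -0.23. Arrdc4 averaged 61.7 ± 18.6 CPM in WT fibers and 2.40 ± 0.638 CPM in WT epithelia (SD, n = 4 each).

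Likeness to other genes was described by Pearson's correlation of log2 CPM over the 24 libraries after the mean of each tissue was removed, among 8631 genes, with no test, and libraries share groups and depth. The genes most like Txnip were Tufm (r = 0.81), Tsc22d1 (0.78) and Pdxk (0.75), and those most like Srxn1 were Fbxo31 (0.80), Rxra (0.79) and Cdk5 (0.79). Prdx1 was most like Gng5 (0.93), Prdx2 like Uqcrh (0.91), Txn1 like Esd (0.91), Prdx3 like Mrps35 (0.85), Prdx6 like Ddx50 (0.81), Msra like Gstk1 (0.79), Txnrd1 like Usp47 (0.70) and Glrx like Zc3h12c (0.64). Among the members the highest values were 0.75 between Txn1 and Prdx2, 0.74 between Txnip and Msra and 0.73 between Prdx1 and Prdx2. With the mean of each group removed instead, they were 0.78, 0.43 and 0.68 in the same order.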

How the data were processed

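RNA from lens fibers and epithelia was sequenced in 24 libraries, 4 in each of 6 groups taken from the labels. The deposited table holds whole-number read counts per gene for each library, made by the authors with no normalization that the values show. The build (mm10/GRCm38) and the tools TopHat, DESeq, bcl2fastq and CASAVA 1.8 are named in the submitters' processing notes. For the counting program, its annotation and its strand setting, the entry is "not given in the sources used here". Symbols, coordinates and promoter windows came from RefSeq for GRCm38.p6, with 24334 of 24415 gene IDs matched.

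Counts were analysed with edgeR 4.0.16 in R 4.3.3: TMM scaling, filterByExpr (minimum count 10, minimum total 15), the quasi-likelihood test and Benjamini-Hochberg adjustment over all genes tested, at 0.05. Conditions were compared in fits of the 12 libraries of a tissue (biological coefficient of variation 12.8% in fibers and 14.2% in epithelia), and tissues and the differences between them in a fit of all 24. Intervals cover 95%. No 2 libraries of a group agreed within sampling noise. The code was tested on simulated data.

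All 10 members were reported in each comparison. In the pathway lists, called genes were counted and up to 3 genes per list with the smallest adjusted p were named. The members and lists were chosen with earlier results of these data known. Alternatives were RLE size factors, no filter, crystallin genes left out, a replicate block, DESeq2 1.42.0, 1 fit of all libraries and leaving out each library. Library totals and the ratios between members were added after seeing the data. Figures were drawn with matplotlib 3.10.9.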

Additional observations from a re-analysis of the deposited data

Results flagged for a closer look

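In WT fibers, library 1 lay far above the other libraries of its group for 2 members: Prdx1 was at 617 CPM there against 399 to 402 CPM in the others, and Txnip at 24.1 CPM against 16.7 to 17.9 CPM. Each gap to the nearest library, divided by the range of the group, was above Dixon's critical value of 0.829 for 4 samples. Of 60 pairs of a member and a group examined, 2 were picked out, and chance picks out about 1 in 20. The same library held 50.1% of its counts in crystallin genes; the part of this in the values was not tested.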

How the results depend on the processing

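With library totals in place of TMM, fibers against epithelia changed sign for Prdx2 (-0.32 in LEGSKO+BSO, -0.45 in LEGSKO, -0.43 in WT), Prdx3 (-0.88, -1.07 and -1.16 in the same order), Srxn1 (-1.01 in LEGSKO+BSO, -1.10 in LEGSKO), Txnip (-0.05 in LEGSKO) and Trnau1ap (-0.23 in WT), by construction of the shift of all genes. Members called in LEGSKO against WT epithelia, 0 with edgeR, were 2 without the filter, 1 without crystallin genes and 2 with library totals. They were 3 with DESeq2, 1 in the fit of 24 libraries and 0 to 2 when single libraries were left out. DESeq2 also called more of all genes in this comparison, 440 against 127 with edgeR. The other member counts are given without a share of all genes called. Whether members were called more often than other genes under these settings was not tested. In LEGSKO+BSO against WT fibers, 2 became 4 with DESeq2, which called 1153 genes where edgeR called 742, and 4 in the fit of 24 libraries. Without single libraries they were 2 to 4 (4 without WT fibers library 1, where 1075 genes were called: Msra and Prdx6 added). In LEGSKO against WT fibers the range was 0 to 2, in LEGSKO+BSO against LEGSKO epithelia 0 to 1, in the LEGSKO difference between tissues 0 to 1, in WT fibers against epithelia 7 to 9, and in LEGSKO+BSO fibers against epithelia 6 to 7. Library totals gave 10 in each of the last 2. The causes were not tested.

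Genes called moved past 1.5 times as follows. DESeq2 gave 440 in LEGSKO against WT epithelia (127 with edgeR), 551 in LEGSKO+BSO against WT epithelia (177), 636 in LEGSKO+BSO against LEGSKO epithelia (109), 500 in LEGSKO against WT fibers (220), 1153 in LEGSKO+BSO against WT fibers (742), 70 in LEGSKO+BSO against LEGSKO fibers (4), and 77 (16) and 306 (43) for the LEGSKO and LEGSKO+BSO differences between tissues. Library totals gave 64 in LEGSKO+BSO against LEGSKO epithelia, 75 in LEGSKO against WT fibers, 173 in LEGSKO+BSO against WT fibers, and 4 and 13 for the differences. For LEGSKO+BSO against LEGSKO, the fit of 24 libraries gave 250 in epithelia and 7 in fibers, and no filter gave 14 in fibers. Without single libraries the edgeR counts ran from 40 to 183 in LEGSKO against WT epithelia, 41 to 324 in LEGSKO+BSO against WT epithelia, 0 (without LEGSKO library 2 or 4 or LEGSKO+BSO library 1 or 3) to 442 (without LEGSKO+BSO library 2) in LEGSKO+BSO against LEGSKO epithelia, 61 to 591 (without WT library 1) in LEGSKO against WT fibers, 285 to 1075 (without WT library 1) in LEGSKO+BSO against WT fibers, 1 to 7 in LEGSKO+BSO against LEGSKO fibers, and 4 to 46 and 12 to 94 for the LEGSKO and LEGSKO+BSO differences.

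Deviations of same-numbered libraries from their group means correlated at -0.35 to 0.39 over all pairs of groups. Between fibers and epithelia of a condition they were 0.08 to 0.23 in LEGSKO+BSO, -0.27 to -0.03 in LEGSKO and 0.07 to 0.39 in WT, and 8, 0 and 4 of 8 libraries correlated best with their own number. Same-numbered libraries of LEGSKO fibers and LEGSKO+BSO epithelia, from different conditions, correlated at 0.1 to 0.33. Whether same-numbered libraries share an origin was not tested, and the numbers were not taken to pair libraries. A replicate block gave 46 genes in LEGSKO+BSO against LEGSKO epithelia, 143 in LEGSKO against WT fibers and 2 in LEGSKO+BSO against LEGSKO fibers; with the block, members called were equal in 9 of 11 comparisons, and Msra (0.62, adjusted p = 0.0447, edgeR) in LEGSKO+BSO against WT fibers and Txn1 (-0.25, adjusted p = 0.0459, edgeR) in LEGSKO fibers against epithelia were added. Glrx in fibers, at 0 to 8 counts a library, did not pass the filter, so no change between conditions is given for it.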
